A study of Mus musculus with 6 samples.

Results

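The mitochondrial ribosomal protein genes were compared between Treg cells labelled Gata3-deficient and Gata3-sufficient. Members were all genes whose single annotated symbol begins with Mrpl or Mrps followed by a digit, which gave 74 of the 12394 genes on the arrays. By symbol, 47 of them encode large subunit proteins (Mrpl) and 27 small subunit proteins (Mrps). Mrpl30 and Mrpl53 were left out because their only probe sets are also annotated to another gene, and no probe set used here names Mrps10 or Mrps27. The rule reads symbols and no measured value, apart from the choice of the probe set with the highest mean where a gene has several.

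Regulatory T (Treg) cells, the CD4 T cells that hold immune responses in check, were isolated by sorting for CD4+CD25+YFP+ from the spleen and lymph nodes of mice. The 3 arrays titled GATA3KO came from Gata3F/FFoxp3YFP-Cre mice, in which both alleles of the transcription factor gene Gata3 are floxed. The 3 arrays titled WT came from Gata3F/+Foxp3YFP-Cre mice, which carry the same Cre and 1 floxed Gata3 allele, so every mouse expressed the Cre. Cre is expressed from the Foxp3 locus and deletes in cells that express Foxp3. The age of the mice was not given in the sources used here. Each value is a log2 intensity from an Affymetrix array, and a change is the mean of the arrays labelled deficient minus the mean of those labelled sufficient.

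The single Gata3 probe set did not read lower in the arrays labelled deficient. It stood at 9.57, 9.41 and 9.47 in sufficient replicates 1 to 3 and at 9.83, 9.98 and 9.71 in deficient replicates 1 to 3, a change of 0.35 (adjusted p = 0.0387 by limma). That call held in 10 of 15 alternative settings and in 2 of the 6 refits without one of the arrays, with adjusted p up to 0.182. Where that probe set lies relative to the deleted part was not analysed here, so each direction below rests on the labels. Array medians lay between 6.06 and 6.11. The T cell genes Cd3d, Cd3e and Cd3g read 12.83, 9.67 and 11.95 on average in the sufficient arrays, and the Treg genes Ctla4 and Il2ra read 11.86 and 8.88. All 5 Treg and 4 measured T cell markers had positive changes and 0 passed, with Ctla4 at 0.22 (limma adjusted p = 0.0531) and Il2ra at 0.20, both without overlap. Their part in the results below was not tested. Foxp3 itself read 3.90 and 3.94 in the 2 groups, below the 40th percentile of all probe sets (5.25). All 74 mitoribosomal genes were read by probe sets above that level, with means from 6.72 to 10.99. In bulk samples, a smaller share of cells of one kind and less RNA per cell cannot be told apart.

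Mitochondrial ribosomes translate the few proteins encoded by mitochondrial DNA, which are core subunits of the respiratory chain and of ATP synthase. Their own proteins are all encoded in the nucleus, made in the cytosol and imported. The large subunit forms the peptide bond and holds the exit tunnel, and the small subunit binds the messenger RNA and decodes it. Many of these proteins descend from bacterial ribosomal proteins and keep their numbers, while others occur in mitochondrial ribosomes and have no bacterial counterpart. T cells enlarge their mitochondria and raise mitochondrial translation when they are activated.

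As a group the mitoribosomal genes read slightly higher in the arrays labelled deficient, and 0 single genes passed the threshold. The median change over the 74 genes was 0.059, against 0.0078 over all genes tested, and the middle 50% of them lay between -0.022 and 0.11. Changes ran from -0.24 for Mrpl38 to 0.27 for Mrpl17, which is 1.21-fold at most. In limma's fit over all genes, with Benjamini-Hochberg adjustment, 0 of the 74 were higher and 0 lower at an adjusted p under 0.05, where 2.21% of all genes passed in either direction (1.44% higher and 0.766% lower). An unadjusted p under 0.05 was reached by 17 higher and 1 lower gene, or 24.3% of the 74, against 14.4% of all genes (8.63% higher and 5.80% lower). Those 18 became 8 without sufficient replicate 2 (10.5% of all genes) and 7 without deficient replicate 2 (12.1% of all genes), and the median became 0.039 without sufficient replicate 2. A positive change was seen in 53 of the 74 (71.6%), against 53.0% of all genes. With all probe sets of a gene averaged, 47 of the 74 were positive.

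**Figure D1:**
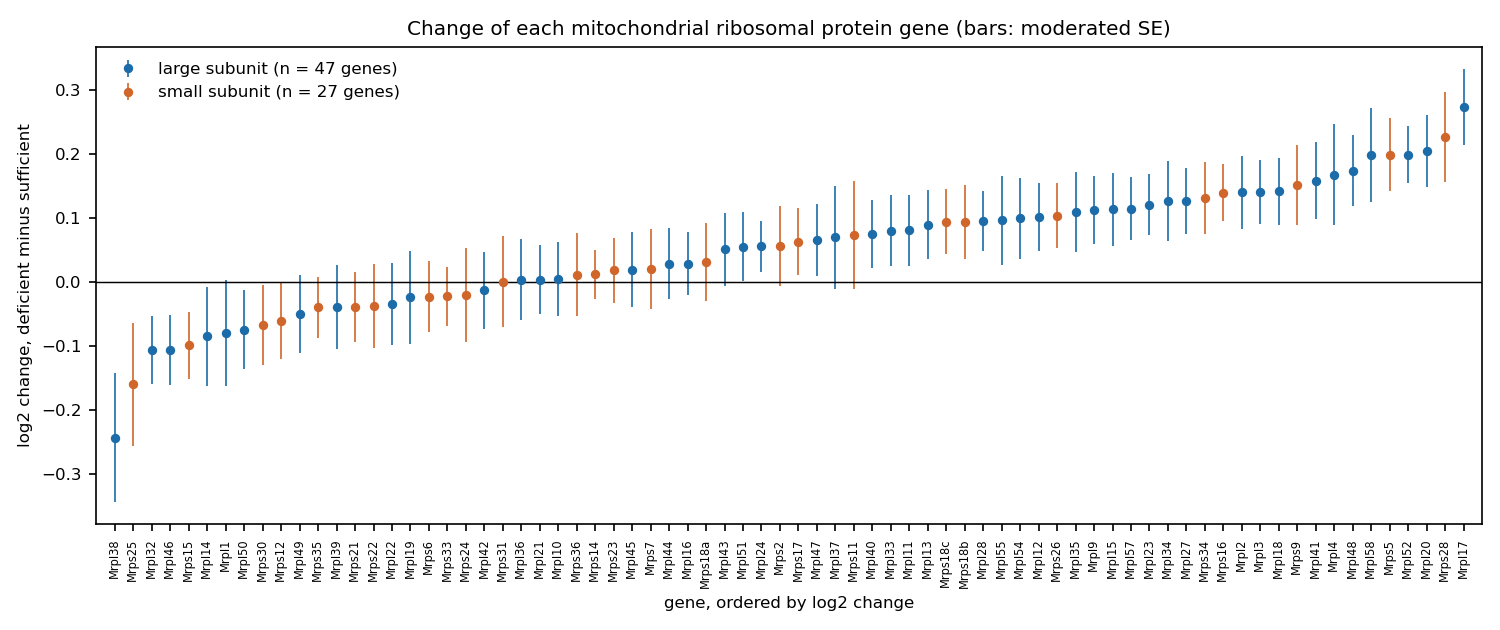
Log2 change (deficient minus sufficient) of each of the 74 mitochondrial ribosomal protein genes, ordered by size, with limma's moderated standard error as bars and colour for the subunit. The points run from -0.24 (Mrpl38) to 0.27 (Mrpl17), and 53 of 74 lie above 0.

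The median of the whole set depended on which probe sets were read. It was 0.023 with all probe sets of a gene averaged, and 0.028 when probe sets with the suffixes _s_at, _x_at and _a_at, which can match several transcripts, were left out (59 genes remained). Moderated standard errors ran from 0.039 to 0.10 with a median of 0.057. The median change of 0.059 was of that size, but these are errors of single genes and not of a median over genes. Positive and negative members offset each other in that median. The groups did not overlap in 25 members that read higher and 2 that read lower in the arrays labelled deficient, together 36.5% of members, against 19.8% of all genes (11.3% higher and 8.51% lower).

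The shift was spread unevenly over the arrays. Averaged over the 74 genes, and expressed as the deviation from each gene's mean over all 6 arrays, the sufficient replicates 1, 2 and 3 stood at -0.027, -0.055 and 0.0070. The deficient replicates 1, 2 and 3 stood at -0.0029, 0.053 and 0.025. Sufficient replicate 3 thus lay above deficient replicate 1, and the groups overlapped in this mean. Deficient replicate 2 was the highest array, with 63 of the 74 genes above their own mean, and sufficient replicate 2 the lowest, with 20. Sufficient replicate 3 had 39 genes above their own mean and deficient replicate 1 had 41.

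Large subunit genes had a median change of 0.080 over 47 genes, and 36 of them were positive. Without sufficient replicate 2 the median was 0.052. By unadjusted p under 0.05 in limma's fit, 12 read higher and 1 lower, beside 8.63% and 5.80% of all genes. Mrpl17, the counterpart of bacterial L17, had the largest difference of all members. It read 8.25, 8.34 and 8.41 in the sufficient arrays and 8.61, 8.66 and 8.56 in the deficient ones. Each deficient array exceeded each sufficient one, and the change was 0.27 ± 0.060 (SE, 1.21-fold, n = 3 and 3, limma adjusted p = 0.0504). That value sits at the edge of the threshold: the adjusted p passed in 4 of 15 alternative settings and ranged from 0.0219 to 0.786. The highest came when the probe set used, which carries the suffix _a_at, was left out. The other Mrpl17 probe set then stands for the gene, lies below the 40th percentile (mean 4.70) and gave a change of -0.093.

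Mrpl52, a large subunit protein with no bacterial counterpart, came next by p. Its values were 10.89, 10.83 and 10.95 in the sufficient arrays and 11.10, 11.05 and 11.11 in the deficient ones. The groups did not overlap, and the change was 0.20 ± 0.044 (SE, limma adjusted p = 0.0531). It passed in 4 of 15 alternative settings, with adjusted p from 0.0225 to 0.236. Its probe sets at means of 9.57 and 9.49 changed by 0.16 each, and the fourth, at a mean of 5.68, by -0.023.

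Mrpl20, the counterpart of a bacterial protein needed early in large subunit assembly, read 8.68, 8.71 and 8.80 in the sufficient arrays. In the deficient arrays it read 8.86, 8.99 and 8.94, again without overlap. The change was 0.20 ± 0.056 (SE, limma adjusted p = 0.109), and it passed with array quality weights (adjusted p = 0.0292) among 14 alternative settings. Mrpl17, Mrpl52 and Mrpl20 each missed the threshold in all 6 refits that dropped a single array.

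Mrpl41, a protein with no bacterial counterpart, had nearly equal deficient arrays, at 9.48, 9.47 and 9.46, against 9.27, 9.23 and 9.44 in the sufficient ones (change 0.16, limma adjusted p = 0.256). Mrpl58, also known as Ict1, is a peptidyl-tRNA hydrolase that became a built-in part of the large subunit. Its values were 9.08, 9.08 and 9.28 in the sufficient arrays and 9.22, 9.37 and 9.44 in the deficient ones. Sufficient replicate 3 lay above deficient replicate 1, so the groups overlapped. The change was 0.20 ± 0.074 (SE, limma adjusted p = 0.244, 95% interval 0.033 to 0.36).

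The genes given here for the catalytic centre and the exit tunnel are a selection and not all members near them. They had changes of both signs, and 0 of them passed. Mrpl2 and Mrpl3, counterparts of bacterial proteins near the site of peptide bond formation, had changes of 0.14 each, and Mrpl27, the counterpart of a bacterial protein whose tail reaches into that site, had 0.13 without overlap. Mrpl3 read 8.70, 8.75 and 8.75 in the sufficient arrays and 8.86, 8.93 and 8.83 in the deficient ones, without overlap (SE 0.050, limma adjusted p = 0.215). Its probe set at a mean of 7.55 gave -0.091 instead. Around the exit tunnel, Mrpl23 had a change of 0.12, Mrpl24 of 0.055 and Mrpl22 of -0.035. Mrpl24 read 10.56, 10.56 and 10.59 against 10.61, 10.66 and 10.60, a narrow spread without overlap. Mrpl45, which anchors the ribosome to the inner membrane, had a change of 0.019. In the flexible stalk that recruits translation factors, Mrpl12, Mrpl11 and Mrpl10 had changes of 0.10, 0.080 and 0.0036.

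Of the 74 members 21 had negative changes, and the groups did not overlap in 2 of these. The central protuberance, the part of the large subunit that faces the small subunit's head, held genes of both directions. Only some members of that region are given here, so no balance of directions can be read from them. Mrpl38, a protein of that region, read 6.97, 6.88 and 6.69 in the sufficient arrays and 6.46, 6.73 and 6.62 in the deficient ones. Deficient replicate 2 lay above sufficient replicate 3, so the groups overlapped. The change was -0.24 ± 0.10 (SE, limma adjusted p = 0.297), and its other probe set, at a mean of 5.03, gave -0.20. Mrpl46 read 8.47, 8.48 and 8.54 against 8.32, 8.45 and 8.40, a change of -0.11 ± 0.055 (SE) without overlap. Mrpl48 and Mrpl40, also of the central protuberance, had changes of 0.17 and 0.075, again without overlap. Both Mrpl48 probe sets gave 0.17.

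Mrpl32, whose protein is matured by the inner membrane AAA protease, read 9.47, 9.41 and 9.48 in the sufficient and 9.28, 9.33 and 9.44 in the deficient arrays. The change of -0.11 ± 0.054 (SE) had an adjusted p of 0.411 by limma, and deficient replicate 3 lay above sufficient replicate 2. Mrpl14, at the interface between the subunits, had a change of -0.086 ± 0.078 (SE). Mrpl37, among the dimmest of the large subunit probe sets, read 6.64, 6.85 and 6.82 against 6.82, 6.81 and 6.89, which overlap.

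**Figure D2:**
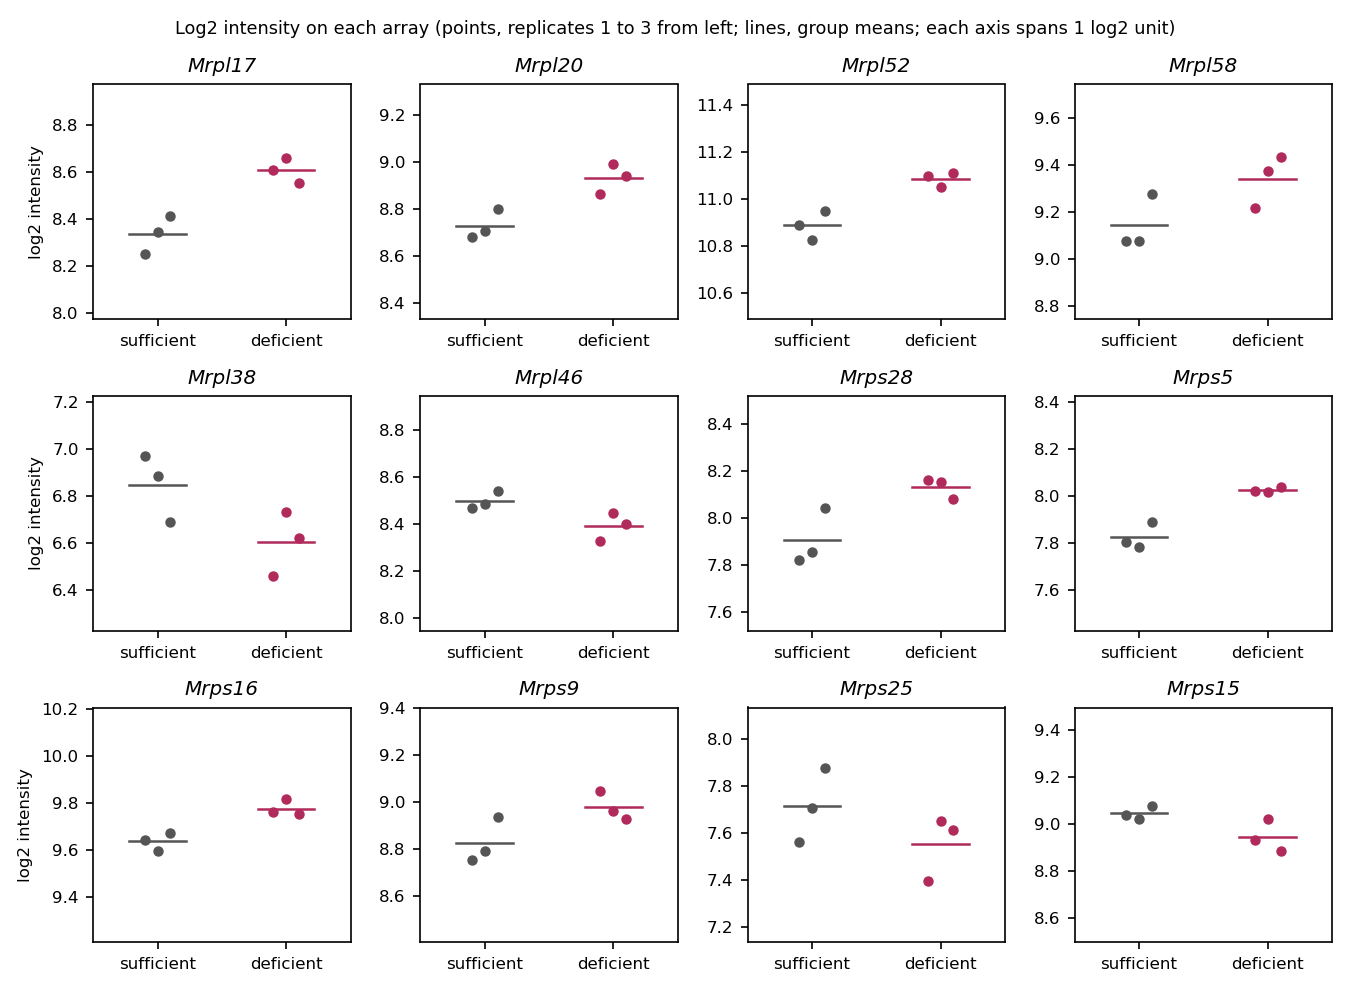
Log2 intensity of 12 members on each array, with points for replicates 1 to 3 from left to right and lines for group means; every axis spans 1 log2 unit. Mrpl17, Mrpl20, Mrpl52, Mrps28, Mrps5 and Mrps16 read higher in all deficient arrays, Mrpl46 and Mrps15 lower in all of them, and Mrpl58, Mrpl38, Mrps9 and Mrps25 overlap.

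Small subunit genes had a median change of 0.017 over 27 genes, with 17 positive. By unadjusted p under 0.05 in limma's fit 5 read higher (8.63% of all genes) and 0 lower (5.80%). The median leaned on single arrays: it was 0.028 without sufficient replicate 1, 0.0095 without sufficient replicate 2 and 0.058 without sufficient replicate 3. It was 0.0050 without deficient replicate 2 and 0.041 without deficient replicate 3. Mrps28, a counterpart of bacterial S1, had the largest difference. It read 7.82, 7.85 and 8.04 in the sufficient arrays and 8.16, 8.15 and 8.08 in the deficient ones. The groups did not overlap, and sufficient replicate 3 came closest to the deficient arrays. The change was 0.23 ± 0.070 (SE, limma adjusted p = 0.154).

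Mrps5, the counterpart of a bacterial protein that takes part in decoding accuracy, read 7.81, 7.79 and 7.89 against 8.02, 8.02 and 8.04. The deficient arrays were nearly equal (SD 0.011), and the change was 0.20 ± 0.057 (SE, limma adjusted p = 0.121). A further Mrps5 probe set, at a mean of 6.65, gave 0.025. Mrps16 read 9.64, 9.60 and 9.67 against 9.76, 9.81 and 9.75, a change of 0.14 ± 0.045 (SE, limma adjusted p = 0.167) without overlap. Mrps9 read 8.75, 8.79 and 8.94 against 9.05, 8.96 and 8.93, which overlap. Its change was 0.15 ± 0.062 (SE), while its other 3 probe sets gave -0.0068, 0.0088 and 0.021.

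At the lower end of the small subunit, Mrps25 read 7.56, 7.71 and 7.88 in the sufficient arrays and 7.40, 7.65 and 7.61 in the deficient ones. Its change was -0.16 ± 0.096 (SE, limma adjusted p = 0.510), and its arrays were widely spread within both groups. Mrps15 read 9.04, 9.02 and 9.08 against 8.93, 9.02 and 8.88, a change of -0.099 ± 0.052 (SE). Deficient replicate 2 lay just below sufficient replicate 2, so the groups did not overlap. Its second probe set gave -0.14. Mrps12, the counterpart of the bacterial protein at the decoding centre, had a change of -0.062 with overlapping groups, and Mrps30 had -0.068.

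The paralogs Mrps18a, Mrps18b and Mrps18c, which all descend from bacterial S18, had changes of 0.030, 0.094 and 0.093. Mrps18b read 7.76, 7.75 and 7.75 in the sufficient arrays and 7.85, 7.90 and 7.79 in the deficient ones, and Mrps18c 9.63, 9.60 and 9.63 against 9.64, 9.80 and 9.70. Neither pair of groups overlapped, whereas Mrps18a did. None of these changes passed (limma adjusted p from 0.451 to 0.879), and 95% intervals of all of them included 0. Mrps14 had the lowest standard error of the members (0.039), with 10.17, 10.18 and 10.17 against 10.18, 10.19 and 10.18, a change of 0.011 that turned to -0.0018 after renewed quantile normalization. Mrps36, now assigned to the oxoglutarate dehydrogenase complex despite its name, had a change of 0.011 as well.

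Set against each other, the median change of large subunit genes was 0.062 above that of small subunit genes. The mean changes lay closer together, at 0.060 over the large and 0.031 over the small subunit genes. Within each array, the mean deviation of large minus that of small subunit genes was -0.0066, -0.0058 and -0.032 in sufficient replicates 1, 2 and 3. In the deficient replicates it was 0.0060, 0.0063 and 0.032. The 2 groups did not overlap in this difference, with means of -0.015 ± 0.015 and 0.015 ± 0.015 (SD, n = 3 each), but the values are small and no test was made of a score over chosen genes. Each gene was centred on its mean over all arrays, so the 2 group means mirror each other by construction. The gap between the medians fell to 0.012 with all probe sets averaged and to 0.040 without the probe sets of suffix _s_at, _x_at and _a_at. It was 0.037 without sufficient replicate 3 and 0.035 without deficient replicate 3. Mrps18a and Mrps30 carry small subunit symbols, but structures of the mammalian mitoribosome place their proteins in the large subunit, and counting them there gave 0.057.

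**Figure D3:**
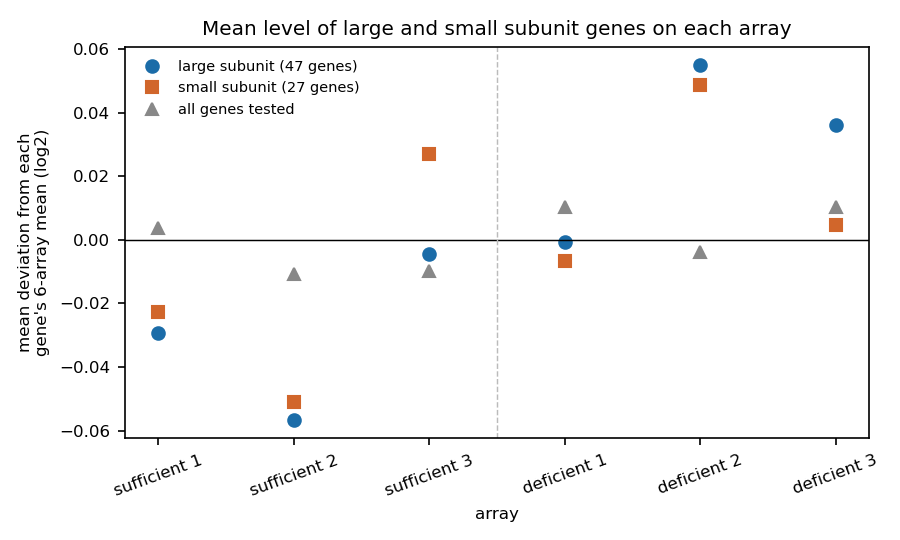
Mean deviation (log2) of large subunit genes, small subunit genes and all genes tested from each gene's mean over 6 arrays, by array; the dashed line separates the arrays labelled sufficient from those labelled deficient. Large subunit genes range from -0.057 (sufficient replicate 2) to 0.055 (deficient replicate 2), and small subunit genes stand at 0.027 in sufficient replicate 3 and at -0.0068 in deficient replicate 1.

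**Figure D4:**
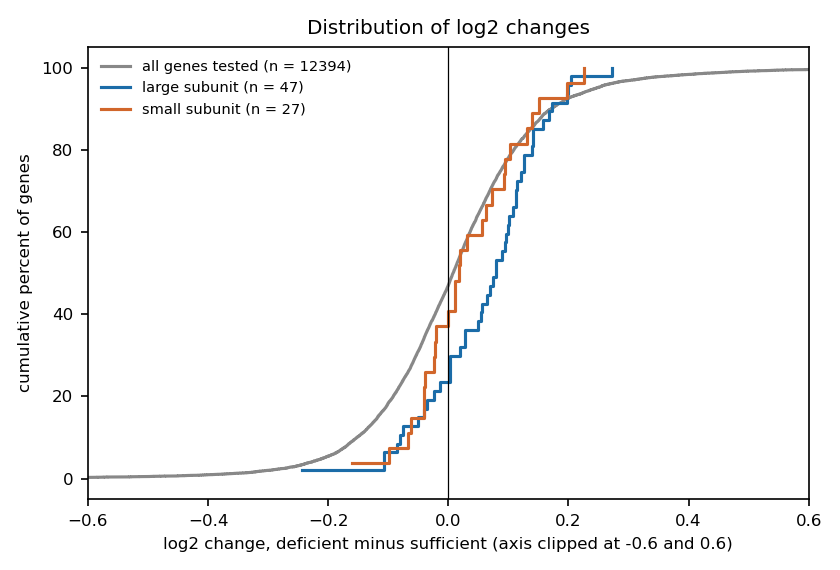
Cumulative percent of genes against log2 change (deficient minus sufficient, axis clipped at -0.6 and 0.6) for all 12394 genes, 47 large and 27 small subunit genes. The medians are 0.0078, 0.080 and 0.017.

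The evolutionary origin of the proteins gave a second division. The 46 genes with a bacterial counterpart had a median change of 0.080 and 36 positive changes. The 28 without a bacterial counterpart had a median of 0.018 and 17 positive changes. Within the large subunit the medians were 0.095 (29 genes) and 0.052 (18 genes), and within the small subunit 0.056 (17 genes) and -0.011 (10 genes). No difference between these groups was tested, and the division was not followed through the alternative settings. Mrpl55 (0.096) and Mrps28 (0.23) were placed with the bacterial counterparts only after their values were seen. Both changes lie above all the medians given here, so the placement favours that group. The 74 genes lie on 17 chromosomes, with the most, 11, on chromosome 11.

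Upstream sequence is shown for members with the clearest array differences, so that the letters near their start sites can be read beside their values. RefSeq's promoter table (build GRCm38.p6) held 65 of the 74 members, and Mrps28 was among the 9 not used. The last 100 bases before the annotated start are shown 5′ to 3′ on the gene's strand for Mrpl17 (chr7:105811088-105811187, minus strand), Mrpl52 (chr14:54426809-54426908, plus strand) and Mrpl20 (chr4:155802778-155802877, plus strand). Mrps15 (chr4:126046828-126046927, plus strand) and Mrpl46 (chr7:78783090-78783189, minus strand), which read lower in every deficient array, are shown beside them. Capitals mark a match, on either strand, to GCGC, any base and TGCGC (the core bound by nuclear respiratory factor 1, NRF1), CCGGAAG (the core of ETS factors such as GABP) or CACGTG (the E-box of MYC and related factors).
Mrpl17: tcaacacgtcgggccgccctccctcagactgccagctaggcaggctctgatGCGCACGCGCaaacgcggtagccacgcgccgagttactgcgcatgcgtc
Mrpl52: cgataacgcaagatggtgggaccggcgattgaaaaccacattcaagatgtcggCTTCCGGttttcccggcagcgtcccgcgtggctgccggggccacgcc
Mrpl20: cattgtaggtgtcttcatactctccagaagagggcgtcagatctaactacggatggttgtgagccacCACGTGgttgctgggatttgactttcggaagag
Mrps15: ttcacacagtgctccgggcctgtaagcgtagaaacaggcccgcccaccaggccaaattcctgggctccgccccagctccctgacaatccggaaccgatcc
Mrpl46: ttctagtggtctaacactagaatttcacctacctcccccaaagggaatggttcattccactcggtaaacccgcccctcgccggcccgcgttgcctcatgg

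Mrpl17 holds the NRF1 letters from position -49 to -40, Mrpl52 the ETS letters from -47 to -41 and Mrpl20 the E-box from -33 to -28, while the windows of Mrps15 and Mrpl46 hold none of them. The promoters shown were picked after values were seen, so no contrast between members can be read from them. Even within 250 bases, 56, 49 and 60 of the 65 members lack the NRF1, ETS and E-box letters. Over the 250 bases before the start, CCGGAAG was present in 16 of 65 members (24.6%), against 12.9% of the tested genes with a promoter and 7.83% of all 27025 genes in the table. The NRF1 core was present in 9 members (13.8%, against 7.63% and 4.23%), and CACGTG in 5 (7.69%, against 9.19% and 6.86%). The 16 members with CCGGAAG, which include Mrpl17, Mrpl52, Mrpl58, Mrpl48 and Mrps16, had a median change of 0.13 and 14 positive changes. The other 49 had a median of 0.020 and 33 positive changes. With the 50 bases after the start included, the difference of medians fell from 0.11 to 0.066. Members with the NRF1 core had a median of 0.028 and those without it 0.056, and with the E-box the medians were 0.093 and 0.052. Over all tested genes the letters made no such division (0.0066 with and 0.0078 without). CCGGAAG was the pattern with the widest division of 14 tried in 2 windows, where the difference of medians ran from -0.096 to 0.11, so it was chosen after its values were seen. A match is a run of letters only and shows no binding.

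Further probe sets of the same genes often gave smaller or opposite changes. The 33 members with several probe sets had 53 that were not used. Their median change was -0.0093, against 0.073 over the probe sets used for those 33 genes. Of the 53, 43 gave a lower change than the probe set used, and 29 the same sign. Among the 36 of them above the 40th percentile the median was -0.0043, and among the 17 below it -0.040. The 41 members with a single probe set had a median change of 0.055 with 30 positive, and 23 of the 33 with several were positive on the probe set used. The largest discrepancy was in Mrps11, where the probe set used (mean 6.84) gave 0.073 and the other (mean 4.43) gave -0.41 at an unadjusted p of 0.00239 by limma. Mrpl15 has 7 probe sets, of which the one used gave 0.11 and that at a mean of 5.49 gave -0.35. Averaging all probe sets of a gene turned the change of Mrps11 to -0.17 and that of Mrpl15 to -0.024. Of the probe sets shared with another gene, that of Mrpl30 and Gm6238 read 10.58, 10.59 and 10.69 against 10.49, 10.50 and 10.52. Its change was -0.11 without overlap, and that of Mrpl53 and Ccdc142 had a change of -0.0038. The one shared by Mrps34 and Nme3 gave -0.072, against 0.13 for the probe set used for Mrps34.

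**Figure D5:**
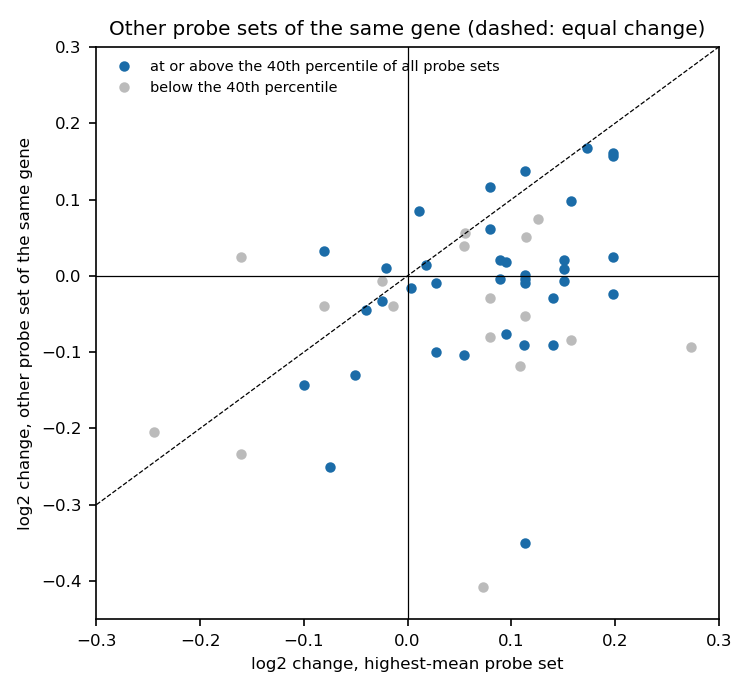
Log2 change of each further probe set (vertical axis) against that of the highest-mean probe set of the same gene (horizontal axis) for the 33 members with several; the dashed line marks equal change, and grey points lie below the 40th percentile of all probe sets. Of 53 points, 43 lie below the dashed line.

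Other lists of the mitochondrial translation machinery had medians of either sign, and no difference between the lists was tested. Of 4 measured mitoribosomal proteins with other names, Dap3, Chchd1, Ptcd3 and Gadd45gip1, 0 passed, and their changes ran from -0.045 to 0.018. Of 6 mitochondrial translation factors 0 passed, 4 were positive and the median was 0.085. Mtif2, the initiation factor, read higher without overlap (0.14, SE 0.050), Gfm2, which splits the ribosome for recycling, read lower without overlap (-0.15, SE 0.072), and Tufm, the elongation factor, had a change of 0.11. Of 21 genes of ribosome assembly and ribosomal RNA modification 1 was higher and 0 lower at an adjusted p under 0.05, against 1.44% and 0.766% of all genes, and the median was -0.026.

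That gene was C1qbp, a matrix protein needed for mitoribosome formation. It read 11.23, 11.26 and 11.33 in the sufficient arrays and 11.45, 11.46 and 11.53 in the deficient ones. It rose by 0.21 ± 0.043 (SE, 1.16-fold, n = 3 and 3, limma adjusted p = 0.0398), with no overlap. The call held in 7 of 15 alternative settings, with limma adjusted p from 0.0129 to 0.479. The highest came when probe sets with the suffixes _s_at, _x_at and _a_at were left out, and averaging all probe sets gave 0.126. It held in 1 of the 6 refits that dropped a single array, where adjusted p ran from 0.0467 to 0.177. Afg3l2, a subunit of the AAA protease that matures Mrpl32, had a change of 0.15 (limma adjusted p = 0.348).

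Among 13 genes that charge mitochondrial transfer RNAs, 0 passed, the median was -0.028, and 5 (38.5%, against 14.4% of all genes) had an unadjusted p under 0.05 by limma. Iars2 (0.24), Gars (0.21) and Rars2 (0.14) were the higher ones, and Gatb (-0.29) and Tars2 (-0.22) the lower ones. Of 11 genes that copy, transcribe or process mitochondrial DNA and RNA, 0 passed, with a median of -0.030. Polg, the mitochondrial DNA polymerase, had -0.14, and Tfam, which packages mitochondrial DNA, -0.071. Among 11 regulators of mitochondrial biogenesis 0 passed, 4 were positive and the median was -0.059. Myc had a change of 0.29 with overlapping groups (limma adjusted p = 0.184). Gabpb1 had -0.30, also with overlap (limma adjusted p = 0.490), and Yy1 -0.14 without overlap (limma adjusted p = 0.109). Nrf1 had -0.056 and Gabpa -0.11.

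Against related gene groups, the mitoribosomal genes lay between the cytosolic ribosome and the respiratory chain. The 47 cytosolic ribosomal protein genes had a median change of 0.013, with 26 positive and 0 past the threshold. The 78 subunit genes of oxidative phosphorylation had a median of 0.083, with 68 positive, and the 23 that had an unadjusted p under 0.05 by limma (29.5%, against 14.4% of all genes) all read higher. Of them 1, Ndufs8 of complex I, rose past the threshold (0.25 ± 0.056, SE, limma adjusted p = 0.0493), against 1.44% of all genes. The mean deviations of all 78 were -0.040, -0.066 and -0.0031 in the sufficient replicates and 0.052, 0.036 and 0.020 in the deficient ones, which did not overlap. The difference between these groups and the mitoribosomal genes was not tested.

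Genes of cell division moved in the same arrays. Of 19 genes that mark DNA replication and mitosis, 6 rose and 0 fell at an adjusted p under 0.05, against 1.44% and 0.766% of all genes. The mean deviations of all 19 were -0.14, -0.29 and -0.054 in the sufficient and 0.11, 0.14 and 0.24 in the deficient replicates. Deficient replicate 3 was the highest array here, where deficient replicate 2 was highest for the mitoribosomal genes. Sufficient replicate 2 was the lowest and sufficient replicate 3 the highest of the sufficient arrays in both, as also for the cytosolic ribosomal, oxidative phosphorylation and myeloid and neutrophil genes. Of 13 myeloid and neutrophil marker genes 0 passed, 12 were positive, and their mean deviations were -0.16, -0.27 and -0.14 against -0.10, 0.21 and 0.46. The mean level of the 7 myeloid markers ran from 5.02 to 5.26 in the sufficient and from 5.25 to 5.61 in the deficient arrays, and that of the 6 neutrophil markers from 4.75 to 4.87 and from 4.89 to 5.69. Itgam, Cd14, Cd68, S100a8, Mpo, Elane and Ngp lay below the 40th percentile of probe sets. Of 5 measured B cell markers 1, Cd22, rose past the threshold (1.15, limma adjusted p = 0.00152), against 1.44% of all genes. Cd79b had a change of 0.23, and Ms4a1, Blnk and Cd79a had -0.40, -0.21 and -0.20. Of 3 natural killer cell markers 0 passed, and Ncr1 had 0.027. Klrk1 and Klrd1 read lower without overlap (-0.57 and -0.71), as did 8.51% of all genes. The part of dividing cells or of these other cell types in the mitoribosomal values was not tested.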

How the data were processed

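The authors deposited 1 log2 intensity per probe set and array, summarised by RMA (background correction, quantile normalization and probe summary) as the submitters' processing notes name without a version. That the values are log2 was read from their range. RMA forces equal distributions, so a change shared by most genes would not be seen. Of 22690 probe sets, 20393 with 1 annotated gene were used, and the one with the highest mean stood for each of 12394 genes. Groups were fitted with limma 3.58.1 in R 4.3.3 (lmFit and eBayes with an intensity trend, two-sided, Benjamini-Hochberg over all genes, threshold 0.05). The procedure was tested on simulated data with added changes larger than any member's. That test does not cover changes of the members' size. Each group had 3 arrays, which limits the precision. That each array is 1 mouse is not stated in the sources used here, so p-values measure the spread between arrays. No hybridisation batch could be read from the labels.

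The members and lists were chosen with earlier results of these data known, and the assignment of Mrpl55 and Mrps28 to bacterial counterparts was corrected after their values were seen. Named members were those with the largest changes, smallest p, brightest and dimmest signals or disagreeing probe sets in each subunit, and up to 3 genes of each other list by p. Others (Mrpl2, Mrpl10, Mrpl11, Mrpl12, Mrpl22, Mrpl23, Mrpl27, Mrpl40, Mrpl45, Mrpl48, Mrps36, Afg3l2, Tufm, Rars2, Gatb, Tfam, Nrf1, Gabpa, the further mitoribosomal proteins and the promoters shown) were chosen for their roles after values were seen. The alternatives tried were a block for the replicate number, other variance estimates, scalings, probe set choices and thresholds, and each array left out.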

Additional observations from a re-analysis of the deposited data

How the results depend on the processing

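The count of mitoribosomal genes higher at the threshold moved between 0 and 3, and the count lower stayed at 0 in every setting run. It was 1 with the replicate block (Mrpl52), 1 with robust variance (Mrpl17), 2 with dim probe sets left out, 2 after renewed quantile normalization (Mrpl17 and Mrpl52 in both), 3 with array quality weights (Mrpl20 as well) and 2 at an adjusted p under 0.1. Over all genes, where 179 were higher and 95 lower, the counts were 31 and 23 without the intensity trend, 400 and 185 with array weights, 34 and 23 at an adjusted p under 0.01 and 343 and 182 under 0.1. With 1 array left out they ran from 35 to 165 higher and from 24 to 105 lower. The replicate block gave 234 and 134. The titles do not state that the replicate numbers pair mice, so they were not taken as pairs. In deviations from group means, same-numbered arrays correlated at 0.0023 to 0.054 and differently numbered ones at -0.056 to 0.021. Which gene passes under the block says nothing of its size.

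With all probe sets averaged the medians were 0.023 (all members) and 0.028 (large subunit), with a difference between the subunits of 0.012. Without the suffixed probe sets they were 0.028, 0.050 and 0.040. With 1 array left out, the median of all members ran from 0.039 to 0.081, of the large subunit from 0.052 to 0.094, of the small subunit from 0.0050 (without deficient replicate 2) to 0.058 (without sufficient replicate 3), and the difference from 0.035 to 0.071. Positive members then numbered 48 to 57.

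Of the 26 members named by rule 21 kept their direction in every setting that held them, while the members named for their roles were not followed. Mrps14 turned to -0.0018 after renewed quantile normalization. Averaging probe sets turned Mrpl15 to -0.024 and Mrps11 to -0.17. Leaving out suffixed probe sets turned Mrpl17 to -0.093 and Mrpl15 to -0.35. With 1 array left out, Mrps11 ran from -0.0066 (without sufficient replicate 2) to 0.12, and Mrps18a from -0.0054 (without deficient replicate 2) to 0.069. The cause was not tested. No scanner values were used here, so signal over background is unknown.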
